A study of Mus musculus with 18 samples.

Results

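The Ikaros family of transcription factors was followed through GM-CSF-driven monocyte differentiation, as the 5 genes *Ikzf1*, *Ikzf2*, *Ikzf3*, *Ikzf4* and *Ikzf5* among the 20298 genes of the expression table, each found by its symbol. RNA was sequenced from 18 libraries in 6 groups of 3. The groups were WT and DKI monocytes left untreated (day 0), and monocyte-derived cells (MDCs) of both genotypes cultured in 20 ng/mL GM-CSF until day 3 or day 6, the cytokine that turns monocytes into dendritic-like cells in culture. DKI mice carry mutations knocked into the N-domains of both *Stat5a* and *Stat5b*, so that STAT5 still pairs into dimers but does not form tetramers. The mutations are carried by every cell of the animal, and all mice were on the C57BL/6 background. Monocytes (Ly6C+ CCR2+) were enriched by removing other cells, so other cells could remain. Liver is the tissue in the labels, but bone marrow in the study's methods. All 8 monocyte markers were detected in every group, and the 5 hepatocyte markers summed to at most 0.0470 RPKM in any library.

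Ikaros family proteins bind DNA through zinc fingers near one end and pair with each other through zinc fingers at the other end. They recruit chromatin remodelling and histone deacetylase complexes, and they are best known for steering lymphocyte development, where they repress as well as activate genes. *Ikzf1* encodes Ikaros, *Ikzf2* Helios, *Ikzf3* Aiolos, *Ikzf4* Eos and *Ikzf5* Pegasus, the most divergent member.

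Levels are given as RPKM, reads per kilobase of gene, scaled to the number of reads assigned to genes in the library. Multiplying RPKM by gene length and library total gave whole reads, so the reads behind each value are known. Each library held between 29.5 M and 43.2 M reads assigned to genes. Differences were tested with limma on log2(RPKM + 1), a scale that compresses the changes of weakly expressed genes, and the test was limited to genes whose mean RPKM exceeded 2 in some group of the comparison. A gene was called at a Benjamini-Hochberg adjusted p under 0.05 over all genes fitted and a fold change above 1.5. *Ikzf1* and *Ikzf5* passed this level in all comparisons and *Ikzf4* only where WT MDCs were included, while *Ikzf2* and *Ikzf3* never passed it. These 2 genes were therefore tested on their reads (limma voom, genes with 10 or more reads in at least 3 libraries), a fit chosen after the data had been seen. RNA of a cell population cannot tell fewer expressing cells from less RNA per cell.

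WT and DKI values of *Ikzf4* and *Ikzf2* did not overlap in MDCs on either day. The same held, in either direction, for 29.2% of all detected genes on day 3 and 29.8% on day 6. *Ikzf4* was 21.6-fold lower in DKI than in WT MDCs on day 3 and 13.0-fold lower on day 6 by the ratio of mean RPKM. The day 3 ratio was 11.8 without WT replicate 2, which had the highest value, and 19.0 to 27.9 without any other library. *Ikzf2* was 5.17-fold and 5.01-fold lower by the same ratio, and it passed the test on reads on day 6 but not on day 3. *Ikzf1*, by far the most abundant member, and *Ikzf5* decreased with time in both genotypes, and neither passed the test between genotypes on any day. *Ikzf3* was low in MDCs, with 4 to 16 reads in WT and 8 to 42 in DKI libraries.

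**Figure D1:**
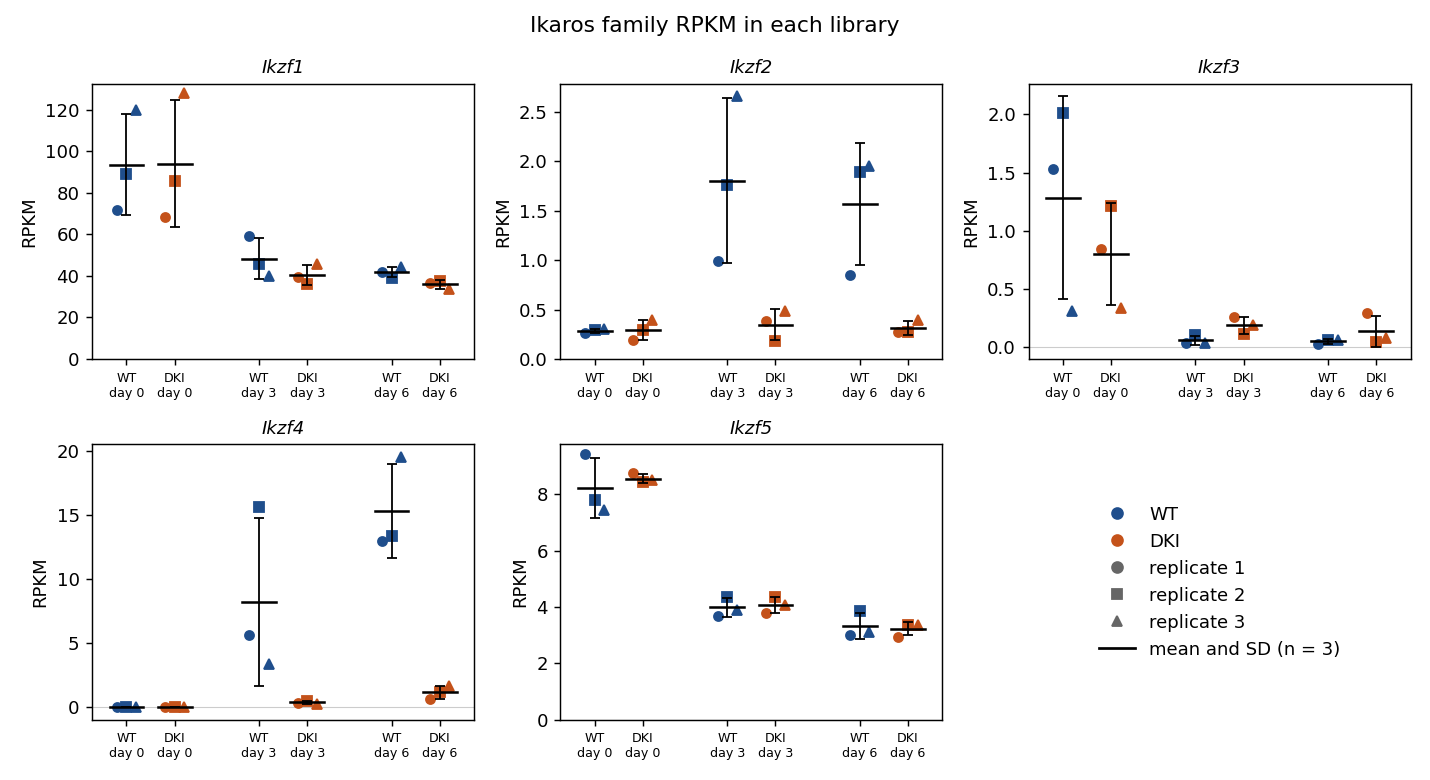
RPKM of the 5 genes (vertical axes, linear, one scale per gene) in each of the 18 libraries, by genotype and day. Symbols are replicates, and black lines are means with SD (n = 3). WT and DKI libraries do not overlap for *Ikzf4* and *Ikzf2* on days 3 and 6, for *Ikzf3* on day 3 and for *Ikzf1* on day 6. The same held for 29.2% and 29.8% of all detected genes on days 3 and 6. *Ikzf1* and *Ikzf5* are high on day 0 and lower in all MDC libraries.

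On day 0, 0 of the 2 members tested (*Ikzf1* and *Ikzf5*) were called between DKI and WT monocytes by limma, 0 had an unadjusted p under 0.05 (0.479% of all genes did), and 0 of the 4 members tested on reads were called. Over all genes, 0% were called. WT and DKI values overlapped for all 5 members on that day. On day 3, 1 of the 3 members tested was called, and on day 6 again 1 of 3, in both cases *Ikzf4*, which was lower in DKI. *Ikzf4* passed the filter only through WT MDCs. Without the filter it was called on day 6 (adjusted p = 0.0220 from limma, 187 of 15926 genes called). It was then not called on day 3 (adjusted p = 0.0708 from limma, 358 of 15756 genes called). With the filter, the share of all tested genes called was 7.42% on day 3 (4.21% called lower) and 7.54% on day 6 (4.82% called lower). These counts, 723 and 742 genes, depended on single libraries. On day 3 the count was 197, 216 and 205 without WT replicate 1, 2 or 3, and 715, 415 and 432 without DKI replicate 1, 2 or 3. On day 6 it was 106, 584 and 107 without WT replicate 1, 2 or 3, and 251, 984 and 90 without DKI replicate 1, 2 or 3. The values of WT and DKI libraries did not overlap for 3 of the 5 members on day 3 (*Ikzf2*, *Ikzf3* and *Ikzf4*) and for 3 of 5 on day 6 (*Ikzf1*, *Ikzf2* and *Ikzf4*), against 29.2% and 29.8% of all detected genes. The median log2 difference over all tested genes was −0.11 on day 3 and −0.17 on day 6, and the differences of the members are given without correction for that shift.

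*Ikzf4*, which encodes Eos, a factor known from regulatory T cells, was close to absent from monocytes before culture. Its day 0 libraries held 0, 3 and 1 reads in WT and 0, 2 and 1 reads in DKI, all at or under 3 reads, the limit that a count of 0 allows. For this gene 3 reads correspond to between 0.0194 and 0.0284 RPKM over the libraries. By day 3 it had reached 5.64, 15.7 and 3.38 RPKM in WT (712, 2110 and 389 reads). DKI MDCs then had 0.355, 0.511 and 0.278 RPKM (50, 72 and 31 reads). The highest DKI library was below the lowest WT library, and the WT libraries differed widely among themselves. By day 6 WT MDCs had 13.0, 13.4 and 19.5 RPKM (1631, 2055 and 2119 reads). DKI MDCs had 0.632, 1.22 and 1.67 RPKM (68, 171 and 207 reads). The groups again did not overlap.

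The log2 difference between DKI and WT was −2.51 (standard error 0.48, adjusted p = 0.0324 from limma) on day 3 and −2.91 (standard error 0.25, adjusted p = 0.00673) on day 6. On the scale of reads these differences were −4.17 (standard error 0.92) and −3.75 (standard error 0.38). The day 6 difference was called also on reads (limma voom adjusted p = 0.0137). The day 3 difference was not called on reads (adjusted p = 0.0528, where 5.72% of all genes were called), nor without the filter on mean RPKM (adjusted p = 0.0708). With the replicate number as a block it was called on reads (−4.31, standard error 0.34, adjusted p = 0.0140, limma voom), and without the filter it was not (adjusted p = 0.109). It was also lost when WT replicate 1 (log2 difference −2.63, adjusted p = 0.0986), DKI replicate 1 (−2.50, 0.0596), DKI replicate 2 (−2.58, 0.0686) or DKI replicate 3 (−2.46, 0.0718) was left out. With all replicate 1 libraries left out, which removes those of an earlier year in the library names, the differences were −2.62 (adjusted p = 0.119) and −2.82 (adjusted p = 0.0576).

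**Figure D2:**
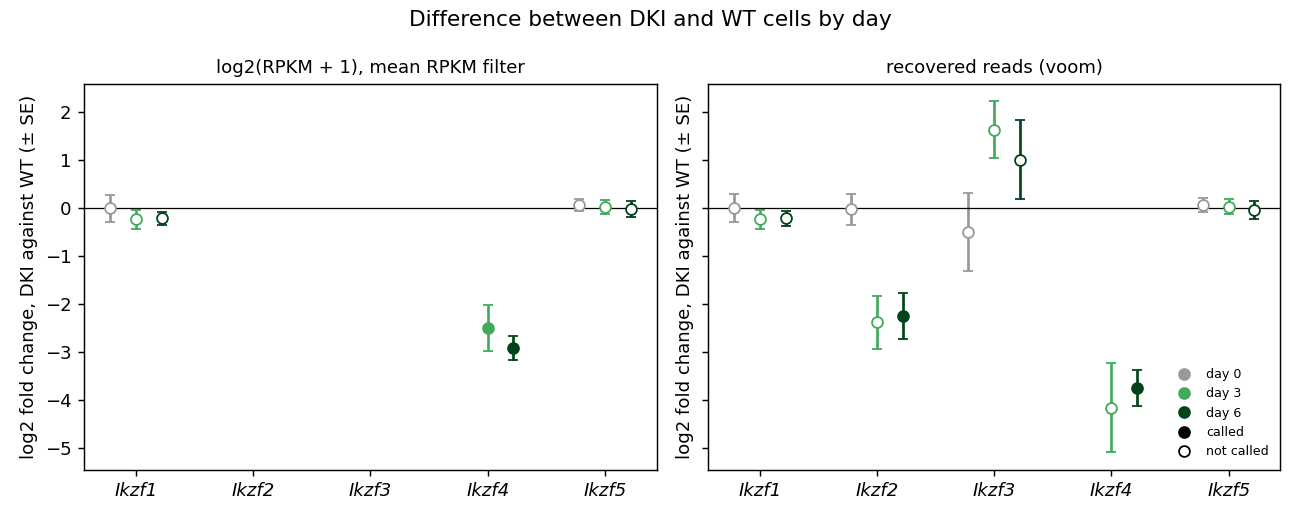
Log2 fold change of DKI against WT (vertical axes, ± SE, 3 against 3 libraries) for each member on days 0, 3 and 6, from log2(RPKM + 1) on the left and from recovered reads on the right. Filled points passed the call. *Ikzf4* is the member that passed on the left, at −2.51 and −2.91, and on the right *Ikzf2* (−2.25) and *Ikzf4* (−3.75) passed on day 6.

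*Ikzf4* rose with GM-CSF in WT cells. Its log2 change from day 0 was 2.96 (standard error 0.46, adjusted p = 0.00253 from limma) by day 3 and 3.99 (standard error 0.20, adjusted p = 2.43e-05) by day 6. The pooled reads gave large but imprecise ratios, since few reads stand on the day 0 side. Pooled over the 3 libraries, the rate of *Ikzf4* reads was 893 times that of day 0 (95% interval 349 to 3281, exact conditional, counting error only) on day 3. In DKI cells the pooled rate on day 3 was 51.8 times that of day 0 (95% interval 17.4 to 254). On day 6 the ratios were 1568 (612 to 5757) in WT and 160 (54.4 to 779) in DKI. With single libraries left out, the WT ratio of day 3 ranged from 477 (without replicate 2 of day 3) to 2280 (without replicate 2 of day 0, which held 3 of the 4 reads), and that of day 6 from 1004 (without replicate 1 of day 0) to 4002 (without replicate 2 of day 0). The DKI ratios ranged from 33.8 to 95.3 and from 104 to 294, both set by replicates 1 and 2 of day 0. In the fit of reads the DKI increase was also called, with adjusted p = 0.00393 by day 3 and 0.00284 by day 6 (limma voom), where 33.4% and 39.1% of all genes were called. The gene was thus higher in DKI MDCs than in DKI monocytes, at a lower level than in WT MDCs.

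The change with time was compared between genotypes directly, as an interaction. From day 0 to day 3 *Ikzf4* changed by 2.51 less in DKI than in WT on the log2 scale (interaction −2.51, standard error 0.54, adjusted p = 0.0350 from limma), the 1 member called of 3 tested, where 2.91% of all genes were called. From day 0 to day 6 the interaction was −2.91 (standard error 0.30, adjusted p = 0.00117), again 1 member called of 3, where 2.8% of all genes were called. Here too *Ikzf4* passed the filter only through WT MDCs. Without the filter the interaction to day 6 was called (adjusted p = 0.00104 from limma) and that to day 3 was not (adjusted p = 0.0553). On reads neither interaction was called (−4.09, adjusted p = 0.420, and −3.67, adjusted p = 0.192, limma voom), where 0.977% and 0.77% of all genes were called, and the day 0 values rest on 4 WT and 3 DKI reads in all. With the replicate block they were not called on reads either (adjusted p = 0.0581 and 0.0654, limma voom). The day 3 interaction was not called when 9 of the 12 libraries were left out 1 at a time, with adjusted p of up to 0.0876. The exceptions were WT replicates 2 and 3 and DKI replicate 2 of day 3. From day 3 to day 6 the interaction was −0.40 (standard error 0.58, adjusted p = 1.0) and 0 of 3 members were called or had an unadjusted p under 0.05, where 0% of all genes were called.

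*Ikzf4* lies on the minus strand of chromosome 10 (chr10:128630839-128669671, mm10, Entrez gene 22781). The RefSeq gene model spans 38833 bases and its start lies 215 bases from the end of *Suox*, sulfite oxidase, the upstream neighbour on the same strand. *Suox* had 23.4, 29.3 and 21.8 RPKM in WT MDCs of day 3, against 2.68, 3.65 and 7.48 RPKM in DKI. The day 6 values were 32.5, 31.2 and 39.2 RPKM in WT, against 4.50, 7.14 and 4.99 RPKM in DKI. All WT values were above all DKI values on both days. The log2 difference was −2.28 (standard error 0.32, adjusted p = 0.0144 from limma) on day 3, which was lost without any 1 WT library (adjusted p from 0.0525 to 0.0594), and −2.45 (standard error 0.19, adjusted p = 0.00637) on day 6. Monocytes of day 0 had 1.66 ± 0.501 RPKM of *Suox* in WT, and 2.00 ± 1.06 in DKI (SD, n = 3), above *Ikzf4*, which was near 0. Whether transcripts that run from *Suox* into *Ikzf4* share in these reads was not tested.

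On the other side of *Ikzf4*, *Rps26*, which encodes a ribosomal protein, had 482 ± 132 RPKM in WT MDCs of day 3, with 240 ± 76.5 in DKI, and 590 ± 167 by day 6, with 252 ± 37.9 in DKI (SD, n = 3). Its log2 differences of −1.02 (adjusted p = 0.106 from limma) and −1.19 (adjusted p = 0.0516) were not called. *Pa2g4* (−0.33 and −0.32) and *Rab5b* (−0.22 and −0.53) were tested and not called on either day. *Erbb3* and *Pmel* had mean RPKM under 2 in every group. With the replicate number as a block, *Rps26* was called on day 6 (−1.19, adjusted p = 0.0491 from limma) and not on day 3 (adjusted p = 0.156). Of the 6 neighbours, *Suox* was the one called in the fit reported. Over 20 alternatives, with and without the block, *Rps26* was called in 1 on day 3 and in 7 on day 6.

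**Figure D3:**
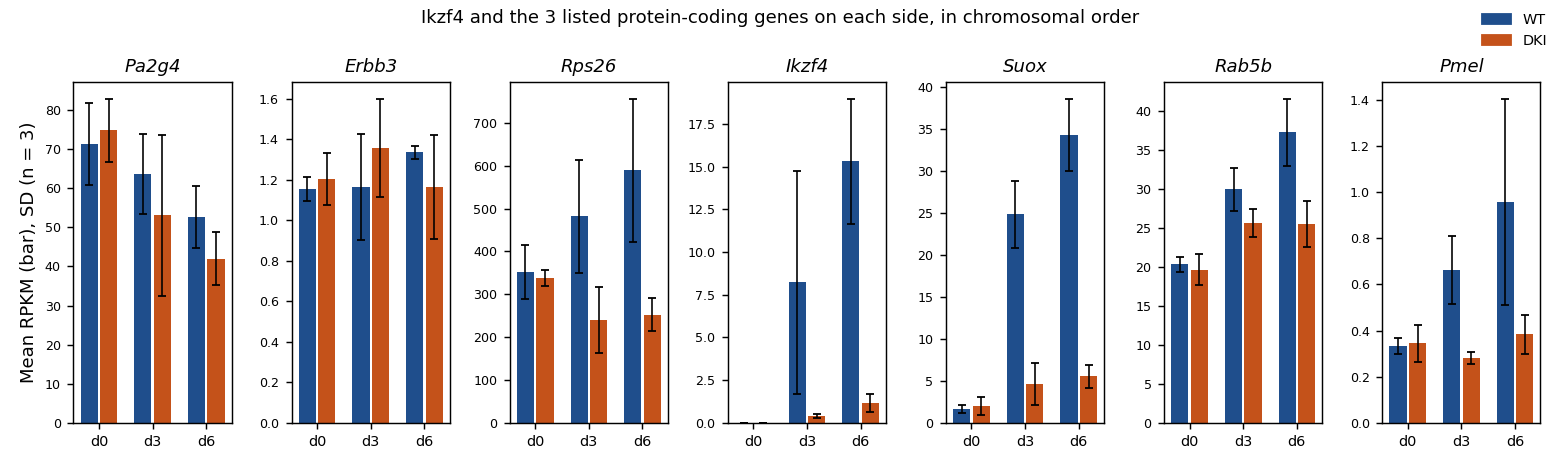
Mean RPKM (bars from 0, SD, n = 3, one scale per gene) of *Ikzf4* and the 3 protein-coding genes listed on each side of it, in the order in which they lie on chromosome 10, for WT and DKI cells by day. *Suox* has the pattern of *Ikzf4* on days 3 and 6, with means of 24.8 and 34.3 RPKM in WT, against 4.61 and 5.55 in DKI.

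*Ikzf2* (chr1:69531207-69687351, minus strand, Entrez gene 22779), which encodes Helios, another factor known from regulatory T cells, was low in all groups but had enough reads to be measured. Before culture its level was 0.265, 0.291 and 0.300 RPKM in the WT group, and in the DKI group 0.191, 0.293 and 0.399 RPKM. WT MDCs of day 3 had 0.993, 1.76 and 2.66 RPKM (330, 624 and 807 reads), and DKI MDCs 0.380, 0.181 and 0.487 RPKM (141, 67 and 143 reads). WT MDCs of day 6 had 0.852, 1.89 and 1.95 RPKM (281, 766 and 557 reads), and DKI MDCs 0.272, 0.269 and 0.395 RPKM (77, 99 and 129 reads). WT MDCs were above DKI MDCs in each same-numbered pair and without overlap on both days, where 29.2% and 29.8% of all detected genes did not overlap.

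On reads, the log2 difference of *Ikzf2* between DKI and WT was −2.38 (standard error 0.56, adjusted p = 0.0583 from limma voom) on day 3 and −2.25 (standard error 0.49, adjusted p = 0.0496) on day 6, when 5.96% of all genes were called. With the replicate number as a block it was called on both days (adjusted p = 0.0381 and 0.0241). On log2(RPKM + 1) without the filter it was −1.02 (adjusted p = 0.0940) and −0.94 (adjusted p = 0.0771), not called on either day. An exact permutation test of the 6 libraries gave p = 0.1 on each day, the smallest p that 3 against 3 allow. *Ikzf2* rose in WT cells, by 2.54 on the log2 scale of reads from day 0 to day 3 (standard error 0.46, adjusted p = 0.00454) and by 2.36 to day 6 (standard error 0.44, adjusted p = 0.00423). In DKI cells the values were 0.19 (adjusted p = 0.781) and 0.15 (adjusted p = 0.781). The difference between genotypes in this change was not called on reads (−2.35, adjusted p = 0.158, from day 0 to day 3, and −2.22, adjusted p = 0.125, from day 0 to day 6, limma voom). With the replicate block the day 0 to day 6 difference was called (−2.31, adjusted p = 0.0346) and the day 0 to day 3 difference was not (−2.40, adjusted p = 0.0553).

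*Ikzf1* (chr11:11684962-11772930, plus strand, Entrez gene 22778) encodes Ikaros, the founding member. In monocytes of day 0 it reached 71.8, 89.1 and 120 RPKM in WT, against 68.5, 85.6 and 128 in DKI, and it exceeded 96.3% of all genes in WT. The replicates differed more than the genotypes, and same-numbered WT and DKI libraries lay close together. WT MDCs measured 59.0, 46.0 and 40.1 RPKM by day 3, against 39.6, 36.0 and 45.7 in DKI. They measured 41.9, 39.2 and 44.2 RPKM by day 6, against 36.5, 37.7 and 33.6 in DKI. On day 6 all WT values were above all DKI values. The log2 difference of −0.21 on day 6 (standard error 0.13, adjusted p = 0.341 from limma) was not called, and that of −0.24 on day 3 was not called either (standard error 0.19, adjusted p = 0.463). The median over all tested genes was −0.17 on day 6 and −0.11 on day 3.

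*Ikzf1* fell in both genotypes. The log2 change from day 0 to day 3 was −0.93 in WT (standard error 0.23, adjusted p = 0.0161 from limma) and −1.16 in DKI (standard error 0.26, adjusted p = 0.0163). To day 6 it was −1.12 in WT (standard error 0.21, adjusted p = 0.00434) and −1.32 in DKI (standard error 0.25, adjusted p = 0.00777). Without WT replicate 3 of day 3 the WT change to day 3 was not called (−0.80, adjusted p = 0.0606), and in DKI the change to day 3 was not called without replicate 2 of day 0 (−1.20, adjusted p = 0.0521) or of day 3 (−1.08, adjusted p = 0.0501). For 6 genes of neutrophils and their precursors the sum was 902 to 1219 RPKM in WT and 859 to 1225 in DKI monocytes, and 4.04 to 515 and 25.4 to 493 in MDCs of day 3. On day 6 it was 2.62 to 165 in WT and 6.55 to 507 in DKI MDCs, so that single MDC libraries stood far above the others of their group. For 5 genes of eosinophils, basophils and mast cells it was 240 to 482 RPKM in WT and 151 to 348 in DKI monocytes, and at most 122 RPKM in any MDC library. Their part in the falls of *Ikzf1*, *Ikzf3* and *Ikzf5* was not tested. The *Ikzf1* interaction was not called over any interval, with −0.23 from day 0 to day 3 and −0.20 from day 0 to day 6.

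*Ikzf5* (chr7:131388649-131410518, minus strand, Entrez gene 67143) encodes Pegasus. WT monocytes had 9.45, 7.81 and 7.45 RPKM, against 8.75, 8.42 and 8.51 in DKI. By day 3 WT MDCs had 3.70, 4.36 and 3.90 RPKM, against 3.78, 4.35 and 4.06 in DKI. By day 6 they had 2.99, 3.87 and 3.12 RPKM, against 2.96, 3.36 and 3.38 in DKI. The genotypes overlapped on each day, with log2 differences of 0.06 (standard error 0.13), 0.02 (standard error 0.15) and −0.03 (standard error 0.16), and none was called (adjusted p = 1, 0.941 and 0.920 from limma). *Ikzf5* fell from day 0 to day 3 by 0.88 in WT (standard error 0.16, adjusted p = 0.00406) and by 0.92 in DKI (standard error 0.15, adjusted p = 0.00628) on the log2 scale. To day 6 it fell by 1.09 in WT (adjusted p = 0.00198) and by 1.18 in DKI (adjusted p = 0.00269). Part of its gene model overlaps *Pstk* on the same chromosome, and reads from the overlap cannot be assigned with certainty.

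The upstream sequence of *Ikzf5* is shown in part because, of the RefSeq windows at hand (1 for *Ikzf5* and 2 for *Ikzf1*, 250 bases before the transcript start), it was the one with a match to TTCNNNGAA, the palindrome that STAT proteins are known to bind. The match, in capitals, lies 218 bases before the start of the transcript used for this window. The window (chr7:131410479-131410728) reaches into the *Ikzf5* gene model given above, which ends at 131410518. The match is at chr7:131410696-131410704 (GRCm38.p6, minus strand), within the printed stretch chr7:131410686-131410714 and inside the *Acadsb* gene of the opposite strand.
Ikzf5: tcgcaaggctTTCCACGAAcccttgcgca
Searched on both strands, TTCNNNGAA was present in 7.02% of the 32851 promoter windows. The windows of *Ikzf1* held none of TTCNNNGAA, TGGGAA (an Ikaros core, in 21.6% of windows) and GAGGAAG (a PU.1 motif, in 10.6%), and that of *Ikzf5* held neither TGGGAA nor GAGGAAG.

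*Ikzf3* (chr11:98464610-98546031, minus strand, Entrez gene 22780) encodes Aiolos, known from the later stages of B cell development. It lies 2.31 Mb from *Stat5a*, whereas *Ikzf1* lies 89.1 Mb away on the same chromosome. Its level in WT monocytes was 1.53, 2.01 and 0.315 RPKM (263, 348 and 42 reads), and in DKI monocytes 0.847, 1.22 and 0.339 RPKM (135, 215 and 41 reads). In WT MDCs of day 3 it was 0.0415, 0.104 and 0.0379 RPKM (6, 16 and 5 reads), and in DKI 0.261, 0.118 and 0.188 RPKM (42, 19 and 24 reads). In WT MDCs of day 6 it was 0.0279, 0.0625 and 0.0645 RPKM (4, 11 and 8 reads), and in DKI 0.292, 0.050 and 0.0775 RPKM (36, 8 and 11 reads). The genotypes overlapped on days 0 and 6 and did not overlap on day 3, when DKI was above WT.

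On reads, the log2 difference of *Ikzf3* on day 3 was 1.63 (standard error 0.60, adjusted p = 0.156 from limma voom) and was not called. *Ikzf3* fell from day 0 to day 3 in both genotypes, with a log2 change of −4.15 in WT (standard error 1.04, adjusted p = 0.0156) and −2.02 in DKI (standard error 0.63, adjusted p = 0.0464). Beside it, the summed RPKM of 9 B cell marker genes was 3.17 to 14.2 in WT and 3.49 to 12.5 in DKI monocytes on day 0. On day 3 it was 0.439 to 0.646 in WT and 1.52 to 7.26 in DKI MDCs, and on day 6 0.454 to 1.21 in WT and 1.54 to 3.77 in DKI MDCs. *Cd79b* made up most of these sums in monocytes and in DKI MDCs, but not in all WT MDC libraries of day 6 (0.0477 to 0.579 RPKM). On day 0 the B cell sum was highest in replicate 3 of each genotype, where *Ikzf3* was lowest. The part of B cells in the *Ikzf3* values was not tested.

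The members thus shared the direction of change from day 0 in part. In WT cells 3 of 3 tested members were called by day 3 (43.1% of all genes called) and 3 of 3 by day 6 (45% called), and in DKI cells 2 of 2 by day 3 (34.2% called) and 2 of 2 by day 6 (40.1% called). On reads, 5 of 5 members were called in WT over both intervals (44.5% and 47% of all genes called), with *Ikzf2* and *Ikzf4* up and *Ikzf1*, *Ikzf3* and *Ikzf5* down, and 4 of 5 in DKI (33.4% and 39.1% of all genes called), where *Ikzf2* was not called. Between day 3 and day 6, 0 of 3 members in WT and 0 of 2 in DKI were called by limma (0% of all genes in both), and 0 in either genotype on reads. *Ikzf4* in DKI had an unadjusted p under 0.05 on reads (log2 change 1.56), as did 139 of the 11811 genes tested.

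RPKM is per length, so that levels may be set side by side. The order of means was *Ikzf1*, *Ikzf5*, *Ikzf3*, *Ikzf2*, *Ikzf4* in monocytes of both genotypes, and *Ikzf1*, *Ikzf4*, *Ikzf5*, *Ikzf2*, *Ikzf3* in WT MDCs on both days. In WT on day 3, *Ikzf4* and *Ikzf5* overlapped, since replicate 3 had 3.38 RPKM of *Ikzf4* and 3.90 RPKM of *Ikzf5*. In DKI MDCs the order was *Ikzf1*, *Ikzf5*, *Ikzf4*, *Ikzf2*, *Ikzf3*, with *Ikzf4* and *Ikzf2* overlapping on day 3. *Ikzf2* and *Ikzf3* overlapped in DKI cells on all 3 days. *Ikzf1* made up 86.5% to 93.7% of the summed RPKM of the family in the day 0 libraries. On day 6 it made up 64.2% to 71.3% in WT and 85.9% to 89.8% in DKI MDCs, while *Ikzf4* made up 22.1% to 28.4% in WT and 1.56% to 4.27% in DKI MDCs. The summed RPKM was 58.4 to 68.9 in WT and 39.1 to 42.6 in DKI MDCs on that day.

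**Figure D4:**
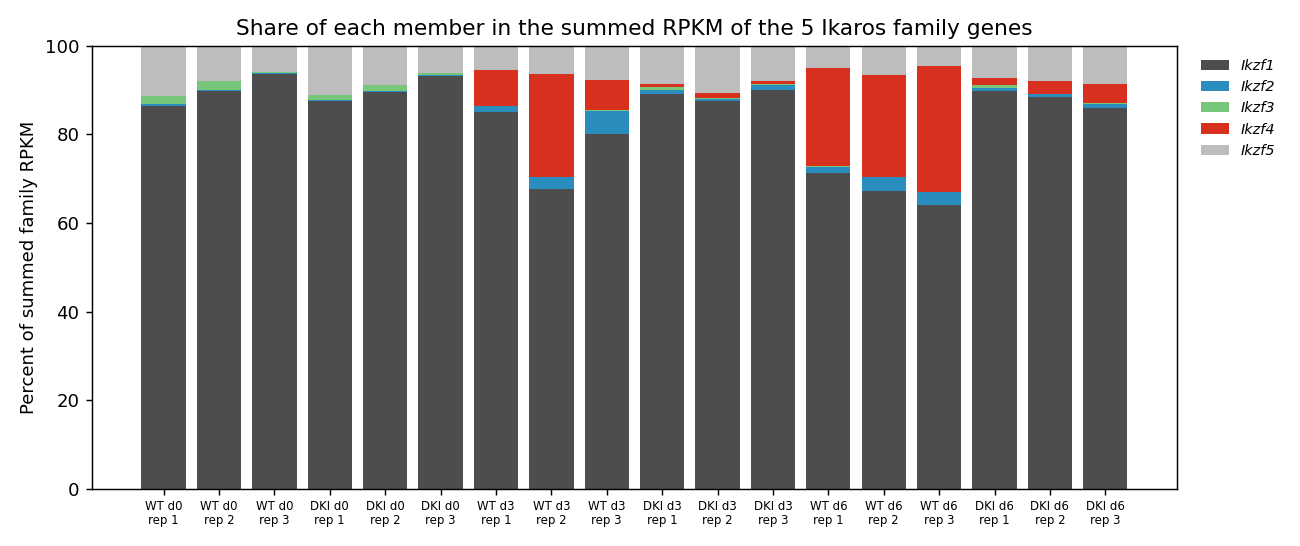
Share of each member in the summed RPKM of the 5 genes (stacked bars to 100 percent, vertical axis) in each library. *Ikzf1* fills most of every bar, and *Ikzf4* takes 22.1% to 28.4% in the 3 WT libraries of day 6 against 1.56% to 4.27% in the DKI libraries.

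Other cells and states moved with the groups in which *Ikzf4* and *Ikzf2* differed. The summed RPKM of 8 monocyte markers was 1554 to 3869 in WT and 8996 to 20980 in DKI MDCs on day 3, and 2843 to 4186 and 10070 to 14220 on day 6. *Lyz2* was the largest part of these sums (732 to 2630 in WT and 7417 to 18910 in DKI on day 3). Without overlap, *Itgam* was also higher in DKI on both days, and *Ly6c2*, *Csf1r* and *Cd14* on day 3. *Ccr2* and *Fcgr1* overlapped on both days. *Cx3cr1*, low in all MDCs, overlapped on day 3 and was lower in DKI on day 6. The sum of 4 stem and progenitor markers, mostly *Cd34* and *Kit*, was 18.4 to 21.6 in WT and 3.82 to 13.7 in DKI MDCs on day 3, and 24.4 to 28.5 and 4.61 to 8.71 on day 6. For 6 T cell markers, the sum was 0.744, 1.58 and 1.34 RPKM in WT and 0.246, 3.02 and 0.626 RPKM in DKI MDCs of day 3. By day 6 it was 2.29, 3.87 and 1.23 RPKM in WT and 0.725, 13.2 and 0.727 RPKM in DKI. The medians were higher in WT on both days, and the highest library was a DKI library on both days. T cells are a known source of *Ikzf2* and *Ikzf4*. The part of these cells and states in the differences was not tested.

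Genes of the complexes through which Ikaros proteins act were read from a list of 17 genes of the NuRD, Sin3 and CtBP co-repressors, of which 16 were analysed. None was called between genotypes on day 0, 3 or 6 by limma or on reads, with 0, 3 and 7 of 16 at an unadjusted p under 0.05, against 26.5% of all genes on day 3 and 28.2% on day 6. The median log2 difference of the 16 genes was −0.19 on day 3 and −0.34 on day 6, against −0.11 and −0.17 over all genes. *Hdac1*, a histone deacetylase, had the lowest value, −0.80 on day 6 (adjusted p = 0.0552 from limma). From day 0 to day 3, 2 of 16 were called lower and 1 higher in WT (22.8% and 20.3% of all genes), and 3 lower and 1 higher in DKI (21.1% and 13.1%). To day 6 the counts were 2 lower and 1 higher in WT (23.7% and 21.4% of all genes) and 5 lower and 1 higher in DKI (26% and 14.1%). *Sin3a*, the scaffold of the Sin3 complex, and *Rbbp4*, a histone-binding subunit, fell in both genotypes over both intervals. *Chd3*, a NuRD remodelling ATPase, rose in both, from 3.40 ± 0.264 to 10.4 ± 0.844 RPKM in WT and from 3.89 ± 0.450 to 9.43 ± 1.48 RPKM in DKI between day 0 and day 6 (SD, n = 3).

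A second list held the cereblon ubiquitin ligase, which in human cells degrades some Ikaros family proteins in the presence of thalidomide-type drugs. It also held the kinase CK2 and phosphatase PP1 subunits that act on Ikaros. Of its 11 genes, 10 were analysed. None was called between genotypes on any day by limma or on reads, with 0, 2 and 1 of 10 at an unadjusted p under 0.05 on days 0, 3 and 6, against the same shares of all genes as above. With time, 2 of 10 were called lower and 1 higher in WT to day 3 (22.8% and 20.3% of all genes) and again to day 6 (23.7% and 21.4%). In DKI 1 was called lower and 0 higher to day 3 (21.1% and 13.1% of all genes) and again to day 6 (26% and 14.1%). Between genotypes, *Ddb1*, the ligase's adaptor, had the lowest value of this list, −0.66 on day 6 (adjusted p = 0.0575 from limma). In WT cells it rose by 0.61 from day 0 to day 3 and by 0.64 to day 6 on the log2 scale (adjusted p = 0.00876 and 0.0116). *Ppp1cb*, a catalytic subunit of PP1, fell in both genotypes over both intervals, to day 6 by 1.06 in each on the log2 scale.

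The genes most like a member were taken as those with the smallest root mean square difference between mean-centred log2(RPKM + 1) profiles over the 18 libraries, among 10417 genes. For *Ikzf4* they were *Arc* (0.25), *Pnkd* (0.35), *Adcy6* (0.38), *Nudt17* (0.38) and *Stap2* (0.39), where the median gene was at 1.63. *Arc*, known as an activity-regulated gene of neurons, had 5.71, 17.0 and 3.39 RPKM in WT MDCs of day 3, with its highest value in the same replicate as *Ikzf4*. DKI MDCs had 0.574, 0.548 and 0.137 RPKM of it. By day 6 *Arc* had 17.4, 12.1 and 18.9 RPKM in WT, against 1.82, 0.956 and 2.58 in DKI. *Suox* was not among these 5 genes. For *Ikzf1* the 5 genes were *Tor1a*, *Ing2*, *Anp32a*, *Exoc6* and *Npat* (0.16 to 0.18, median gene 0.67). For *Ikzf5* they were *Taf3*, *Gon7*, *Med6*, *Ppp6r3* and *Plekhf2* (0.065 to 0.10, median gene 0.61), of which *Taf3* and *Med6* encode parts of the general transcription machinery.

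**Figure D5:**
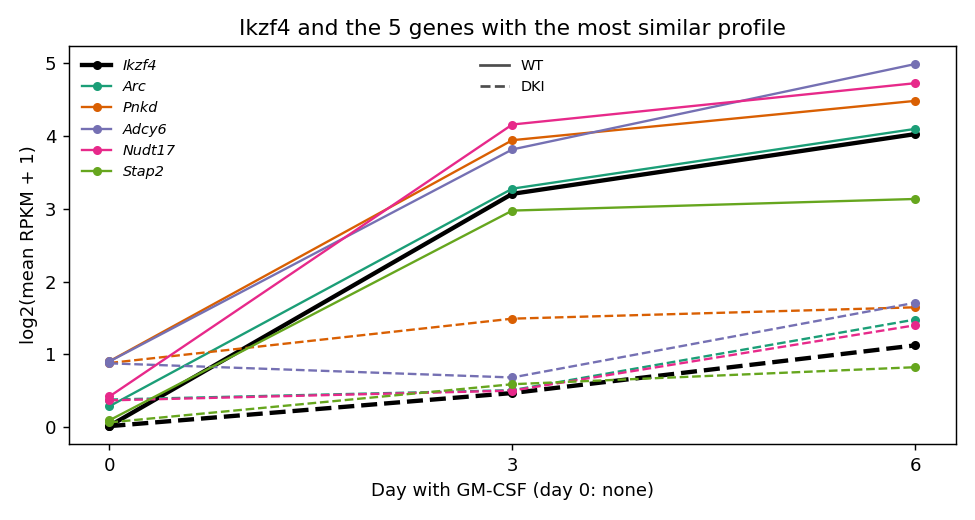
Log2(mean RPKM + 1) (vertical axis, means of 3 libraries) of *Ikzf4* and the 5 genes with the most similar profile, against the day with GM-CSF, in WT (solid) and DKI (dashed). *Ikzf4* means of 8.23 and 15.3 RPKM in WT MDCs lie beside those of *Arc*, 8.69 and 16.1 RPKM, and all DKI lines stay below the WT lines after day 0.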

How the data were processed

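Single-end reads of 18 libraries were aligned by the authors to mm10 with Subread and counted on RefSeq genes with featureCounts, and were deposited as RPKM values, 1 column per library. Versions and strand settings are not given in the sources used here. The deposited RPKM values were multiplied by gene length and by library total, both inferred from the values. Whole reads (within 0.05 reads) resulted for 15484 of 15485 genes above 0 in at least 4 libraries, and their sums were 99.9993% to 100.027% of the inferred totals. The labels gave genotype, day and replicate.

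Log2(RPKM + 1) was fitted with limma 3.58.1 (R 4.3.3, intensity trend) on the groups compared, without a block. Other steps used Python 3.11.15. The fit was tested on simulated data. The members, lists and rules for named genes (lists, 3 neighbours on each side, 5 most similar genes) were chosen with earlier results of these data known. Fits on reads were added after the data were seen. p-values measure the spread between 3 libraries per group, from 3 independent experiments per the series description. WT and DKI libraries that share a number departed from the means of their groups in the same direction (r from 0.163 to 0.865 over the 3 days), and their library names carry consecutive numbers, so the replicate numbers were taken to pair them. Same-numbered libraries of days 3 and 6 also went together within a genotype (r from 0.125 to 0.68 in WT and 0.32 to 0.743 in DKI). The results of those days are therefore not independent of each other. *Rbbp7* and *Cul4b* are not analysed here. Alternatives covered pseudocount, filter, block, scaling and left-out libraries. Intervals cover counting error only.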

Additional observations from a re-analysis of the deposited data

Results flagged for a closer look

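*Ikzf4* was singled out because its genotype effect differed between days on log2(RPKM + 1). The difference between DKI and WT was larger on day 3 than on day 0 by −2.51 on the log2 scale (interaction, adjusted p = 0.0350 from limma), and larger on day 6 than on day 0 by −2.91 (adjusted p = 0.00117). The day 0 difference was −0.0028 (no filter), so these values repeat the differences of days 3 and 6. On reads neither interaction was called (adjusted p = 0.420 and 0.192 from limma voom). All 3 DKI libraries were below all 3 WT libraries on days 3 and 6, and on day 0 no library had more than 3 reads. No group had more than 3 libraries, so single libraries were not screened for distance from their group.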

How the results depend on the processing

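Counts are members called, and a lost call's cause was not tested. Between DKI and WT on day 3 the count was 0 with no filter, with no filter and the replicate block, with no filter and without replicate 1, with voom on reads and with voom at 10 reads, and 2 with voom, 10 reads and the replicate block. With 1 library or replicate 1 left out it was 0 to 1. On day 6 it was 0 with no filter and the replicate block and with no filter and without replicate 1, 2 with voom at 10 reads with and without the replicate block, and 0 to 1 with libraries left out. The block was among the alternatives that changed the call of *Rps26* on day 6 (adjusted p = 0.0491 from limma), which was called in 7 of 20. *Ikzf4* stayed lower in DKI on both days in all alternatives, from −4.31 to −1.97 on day 3 (called in 10 of 20) and from −3.75 to −2.72 on day 6 (17 of 20).

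Over time the count was 5 with voom at 10 reads, with and without the block, in WT to days 3 and 6, 5 with no filter in WT to day 6, and 4 in DKI to days 3 and 6. In DKI it was 1 with no filter and the block over both intervals, 1 with no filter and without replicate 1 to day 3, and 1 to 2 with libraries left out to day 3. In WT to day 3 it was 2 to 4 with libraries left out, with *Ikzf2* past the filter and called without replicate 1 (adjusted p = 0.0178). Numbers did not pair day 0 with later days, and with the block *Ikzf1* in WT to day 3 had adjusted p = 0.0531 from limma. The interaction count from day 0 to day 3 was 0 with no filter (block or not, or without replicate 1), at mean RPKM 5 and in all 3 fits on reads, and 0 to 1 with libraries left out. To day 6 it was 0 in both fits on reads without the block, 1 with the block on reads (*Ikzf2* called and *Ikzf4* not), and 2 with no filter and the block or without replicate 1. The block changed no other call of a member on log2(RPKM + 1) with the filter.

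Differences near 0 turned sign, none of them called. With libraries left out, those of *Ikzf1* ranged from −0.26 to 0.19 on day 0 (0.0171 without replicate 1, filtered or not), and its interactions from −0.43 to 0.014 (day 0 to 3), −0.14 to 0.15 (day 3 to 6; −0.14 with no filter and without replicate 1) and −0.40 to 0.043 (day 0 to 6). Those of *Ikzf5* ranged from −0.0047 to 0.15 on day 0, −0.020 to 0.075 on day 3 and −0.084 to 0.058 on day 6, and its interactions from −0.13 to 0.026, −0.11 to 0.037 and −0.18 to 0.0019. After median centring and quantile normalization *Ikzf5* was at 0.12 and 0.11 on day 6, with interactions of 0.046 and 0.038, 0.018 and 0.027, and 0.059 and 0.065. The day 3 to 6 interaction of *Ikzf4* was 0.19 at pseudocount 0.1, 0.41 in each fit on reads, and from −0.94 to 0.019 with libraries left out.

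Over all genes, 358 and 187 were called without the filter on days 3 and 6 (723 and 742 in the fit reported), 1359 and 1573 with all 18 libraries, and 38 on day 6 without replicate 1. On day 6, 474 lower and 268 higher genes became 285 and 323 after median centring. *Ikzf3*, with 4 to 16 reads in WT MDC libraries, is limited by depth.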
